A study of Mus musculus with 9 samples.

Results

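The step examined here is the transition of mouse ovarian surface epithelial (MOSE) cells from the early stage, MOSE-E, to the intermediate stage, MOSE-I, measured across the expressed genes on 3 Affymetrix whole-genome mouse arrays per stage. Passages 13, 14 and 15 stood for MOSE-E, labelled non-malignant and described by the depositors as pre-neoplastic, and passages 63, 71 and 73 for MOSE-I, labelled intermediate and described as neoplastic but pre-invasive. A further 3 arrays of MOSE-L cells, labelled malignant (passages 136, 142 and 143), entered the statistical fit and otherwise serve here only for side-by-side values. Cells of every stage came from 1 series taken from C57BL6 mice that transformed spontaneously in culture, carried no engineered allele and received no drug, and all were grown in high-glucose DMEM with fetal bovine serum, insulin, transferrin, selenite, penicillin and streptomycin. Stage was defined by passage range, so time in culture and stage cannot be told apart, and the cultures were heterogeneous. Genes were taken where a probe set, the group of short oligonucleotides that reports 1 transcript, gave a signal over 500 on at least 1 of the 6 MOSE-E and MOSE-I arrays. This chose 12604 of the 45101 probe sets, which covered 7339 of the 18193 genes that a probe set named alone.

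The ovarian surface epithelium is a single layer of mesothelium-like cells that covers the ovary. It rests on a basement membrane of type IV collagen, laminins and nidogens, expresses simple-epithelial keratins together with N-cadherin, and shifts readily between epithelial and fibroblast-like forms in culture. Cells that transform in culture pass many divisions under selection for growth, during which adhesion to matrix and neighbouring cells, growth factor dependence, metabolism and chromosome number can all change. MAS 5.0 signals are linear intensities without a unit, scaled on each array to a trimmed mean of 500. Changes are given as differences of log2(signal + 50), MOSE-I minus MOSE-E, a scale that understates the fold of dim genes. Calls needed a limma adjusted p no higher than 0.05 and a log2 change of 1 or more either way, and each gene was read from its brightest probe set. "Rose" and "fell" are used of called genes.

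Arrays are called E1 to E3 (MOSE-E replicates 1 to 3), I1 to I3 (MOSE-I) and L1 to L3 (MOSE-L). In each stage compared, replicate 1 stood apart from the others. Over the tested probe sets, log2 signals of E2 and E3 correlated at 0.986 and those of I2 and I3 at 0.985, whereas E1 correlated at 0.945 and 0.950 with its group and I1 at 0.933 and 0.942. E1 was the nearer of the MOSE-E arrays to MOSE-I cells, with correlations of 0.916 to 0.931 against 0.843 to 0.873 for replicates 2 and 3. Median signals of the 6 arrays were 93.1 to 115.9, with 10075 to 10848 probe sets on an array above 500. The 3' to 5' signal ratio of the Actb control probe sets, a sign of RNA integrity, was 1.12 to 1.25 in MOSE-E and 1.31 to 1.38 in MOSE-I, and that of Gapdh was 0.744 to 0.773 and 0.773 to 0.810. The part of these differences in the results was not tested. Nothing states that the cultures were derived independently, so p-values measure the spread between passages of 1 cell series.

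Of 28 ovarian surface epithelium and mesothelium markers with a probe set, 20 passed 500 on at least 1 of the 6 arrays. The other 8 (Gata4, Lhx9, Calb2, Amhr2, Aldh1a2, Igfbp5, Lgals7 and Pax8) stayed at or under 183, so the labelled cell type was met by part of its markers. Krt7, Msln, Cdh1, Muc16 and Lrrn4 were called lower in MOSE-I, as described further on, whereas keratins 8 and 18 were bright on every array. The signals of Krt8 were 17120.1, 18246 and 16697 in MOSE-E and 20066, 20059 and 23512 in MOSE-I, and those of the Wilms tumour transcription factor Wt1 were 2484, 1803 and 1682 and 1352, 2417 and 1669. Uroplakin 3b (Upk3b), a mesothelial membrane protein, gave 13698, 13074 and 16369 in MOSE-E and 6291, 21384 and 13851 in MOSE-I. None of these 3 genes was called, and their groups overlapped for Wt1 and Upk3b. Of 16 leukocyte markers 2 passed 500, with summed signals of 1429 to 1792 in MOSE-E and 1726 to 3068 in MOSE-I, and the leukocyte tyrosine phosphatase Ptprc stayed between 2.53 and 51.9. The 2 were Cd14 (586, 478 and 454 in MOSE-E, 746, 1046 and 1264 in MOSE-I) and Csf1r (205, 250 and 185, then 228, 492 and 595). Neither was called with all arrays, and both were called higher without I1. Of 12 endothelial markers 1 passed (Esam, with summed signals of 2051 to 2475 and 1055 to 1378 for the list), with Pecam1 between 8.82 and 88.4, and of 9 granulosa and theca markers none did, with summed signals of 750.4 to 1163 and 953 to 1039. Esam fell (change -1.93, adjusted p = 0.0192), and its call was lost without E2, E3, I2 or I3.

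In all, 265 probe sets were called higher in MOSE-I than in MOSE-E (2.1% of those tested) and 519 lower (4.12%). By gene, 176 were higher (2.4% of 7339) and 293 lower (3.99%), the shares against which counts in gene lists are read. A list member that passed the signal filter in 1 stage alone had its highest signal there by that rule. Such a member is called bound to differ below, though single arrays of its stages could still overlap. The number past the filter in both stages is therefore given beside the larger counts. This holds too for each single gene below that stayed at or under 500 on every array of 1 stage, such as Il33, Emb, Bnip3 and Fmod. The median change of all tested genes was 0.04 on the log2 scale, with 90% of genes between -1.08 and 0.90. Falls were also larger than rises. A change of at least 2 on the log2 scale was reached by 21 called rises and 80 called falls, and one of at least 3 by 6 and 24. On the raw signals, 1785 genes (24.3%) were higher on every MOSE-I array than on every MOSE-E array and 1330 (18.1%) were lower, with no overlap. Further tested probe sets of called genes numbered 78 for 55 risen genes and 214 for 143 fallen genes. Of these, 78 and 213 had a change of the same sign, 40 and 119 were called the same way, and none was called the other way.

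In most called genes, E1 lay on the MOSE-I side of the mean log2 signal of E2 and E3. This held for 155 of the 176 risen and 255 of the 293 fallen genes. Over all risen and all fallen genes, E1 lay at a median of 31.7% and 34.2% of the way from that mean to the MOSE-I mean. The genes were called on these same arrays, and the share over all tested genes was not counted. Counts depended on which array was left out, and the part of E1's position in this was not tested. Without E1, 486 probe sets were higher and 750 lower, and without I1, 398 and 494. Without E2 or E3 the counts fell to 46 and 102 or 40 and 92, and without I2 or I3 to 134 and 312 or 66 and 159, with 2 arrays left in that group each time. In every one of the 9 fits that left out 1 array, 28 of the 176 risen and 52 of the 293 fallen genes were called. Such genes are described below as held in every leave-one-out fit. Of the 118 called genes that the naming rule chose, 32 did so. The other 86 lost the call without at least 1 array, most often E2 or E3 (82 genes each) or I3 (66), and called genes given below with no remark on single arrays are among those that lost it.

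**Figure D1:**
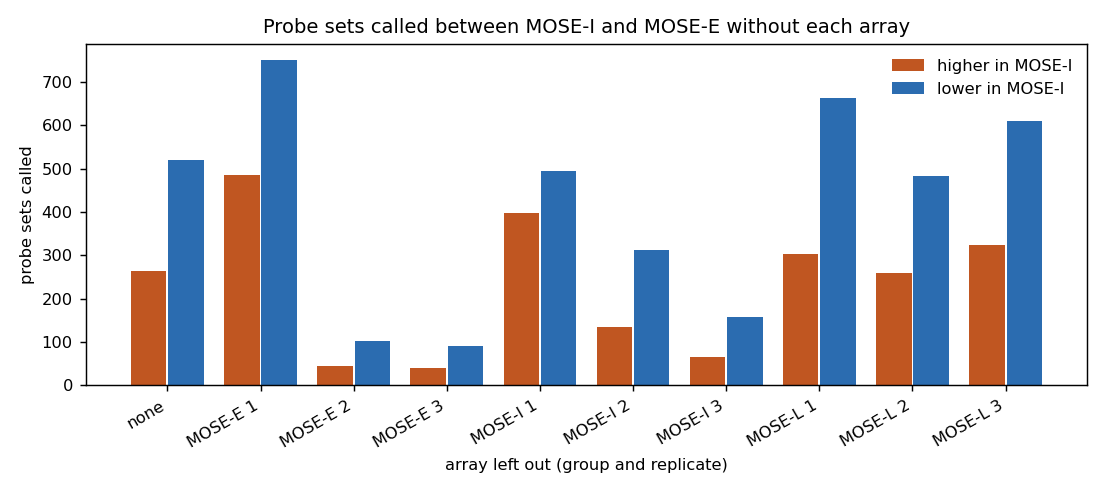
Number of probe sets called higher (orange bars) or lower (blue bars) in MOSE-I than in MOSE-E with all 9 arrays (none) and with each array left out in turn. The counts were 265 and 519 with all arrays, and lowest, 40 and 92, without MOSE-E replicate 3.

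The largest rises were those of both metallothioneins, small cysteine-rich proteins that bind zinc, copper and cadmium and are induced by metals, glucocorticoids and oxidative stress. Mt1 gave signals of 2494, 270.4 and 296 on the MOSE-E arrays and 27886, 12172 and 14507 on the MOSE-I arrays, a log2 change of 4.70 ± 0.84 (SE, adjusted p = 0.0103). Mt2 gave 1753, 304 and 300.2 and 24804, 10835 and 11425, a change of 4.59 ± 0.79 (adjusted p = 0.00879). Replicate 1 had the highest signal of each stage for both genes, and in neither gene did the stages overlap. Both calls were lost without E2 or E3, with adjusted p of 0.0605 and 0.0535 without replicate 3. Each was read from 1 probe set, and cross-hybridisation between these related transcripts was not tested. The genes are neighbours on chromosome 8, and their promoters are printed because both transcripts moved together. They are RefSeq sequences of GRCm38.p6, from 250 bases before to 50 after the annotated start, at chr8:94178839-94179138 (Mt1, plus strand) and chr8:94172368-94172667 (Mt2, plus strand). Capitals mark matches, on either strand, to the core of the metal response element, searched as TGCGCNC or TGCACNC.
Mt1: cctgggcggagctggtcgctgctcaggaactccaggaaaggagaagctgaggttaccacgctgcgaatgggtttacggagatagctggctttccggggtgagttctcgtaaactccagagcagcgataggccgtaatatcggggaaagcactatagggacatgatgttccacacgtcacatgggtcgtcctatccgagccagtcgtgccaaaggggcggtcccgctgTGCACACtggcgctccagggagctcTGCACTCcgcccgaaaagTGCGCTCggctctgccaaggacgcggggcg
Mt2: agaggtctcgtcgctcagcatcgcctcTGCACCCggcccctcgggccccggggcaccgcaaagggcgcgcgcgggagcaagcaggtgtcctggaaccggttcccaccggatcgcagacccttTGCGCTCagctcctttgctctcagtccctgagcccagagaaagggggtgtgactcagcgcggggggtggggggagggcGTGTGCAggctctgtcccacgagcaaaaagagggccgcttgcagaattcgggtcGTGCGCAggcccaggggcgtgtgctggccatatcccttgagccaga
The Mt1 promoter held 3 matches and that of Mt2 4. At least 3 matches stood in 1.97% of all 32851 promoters of that table and in 3.45% of those of tested genes. At least 1 match stood in 25.7% of all promoters, and by gene in 42.2% of the tested genes with a promoter, 35.6% of the risen and 46.1% of the fallen ones. By gene, at least 3 matches stood in 4.17% of the tested, 6.82% of the risen and 2.74% of the fallen genes (9 and 6 genes), so the order of risen and fallen genes depends on the number of matches asked for.

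The other large rises included transcription factors, secreted matrix proteins and receptors. Twist2, a basic helix-loop-helix factor of mesenchymal cells, gave 18.8, 81.3 and 87.3 in MOSE-E and 1936, 1706 and 2010.2 in MOSE-I (log2 change 4.17 ± 0.33, adjusted p = 0.000388). The groups lay far apart, and its call held in every leave-one-out fit. Matrix Gla protein (Mgp), an inhibitor of calcification, gave 2211, 355 and 579 and 4844, 17842 and 23408 (change 3.93, adjusted p = 0.00788), and the alarmin cytokine Il33 gave 219.7, 402 and 273 and 1617, 4721 and 6343 (change 3.44, adjusted p = 0.00379). In both, I1 was the lowest MOSE-I array. The Mgp call was lost without E3 (adjusted p = 0.0509), and that of Il33 held throughout. Biliverdin reductase B (Blvrb), a haem-degrading enzyme, rose by 3.08 from near-background signals of 104, 10.3 and 11.2, so the size of its change depends on the added 50. The TGF-beta co-receptor betaglycan (Tgfbr3) gave 207, 200.1 and 183 in MOSE-E and 501, 3267 and 3245 in MOSE-I (change 2.88), with replicate 1 much below the other MOSE-I arrays. The remaining genes among the 15 largest rises, with changes of 2.30 to 2.73, were the lysosomal glycoprotein Creg1, the homeobox factor Prrx1, the collagen-binding proteoglycan fibromodulin (Fmod), the mesothelial and stromal factor Tcf21, the small GTPase Rasl11a, the leukaemia inhibitory factor receptor Lifr, the lipopolysaccharide-binding protein Lbp and the surface glycoprotein Cd24a. Of these, Creg1, Prrx1 and Cd24a held in every leave-one-out fit, and Cd24a was also among the brightest, at 4775, 2871 and 2052 in MOSE-E and 13146, 17127 and 15464 in MOSE-I. For Blvrb, Rasl11a and Lifr the highest adjusted p came without E3 (0.0657, 0.0624 and 0.0511), for Tgfbr3, Fmod and Tcf21 without I3 (0.0722, 0.0621 and 0.0652), and for Lbp without E2 (0.102).

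The largest fall was that of Igfbp2, a secreted binding protein of insulin-like growth factors, from 2641, 7191 and 5563 in MOSE-E to 99.5, 64.5 and 8.39 in MOSE-I (log2 change -5.58 ± 0.58, adjusted p = 0.00129). Osteoblast cadherin (Cdh11), a mesenchymal adhesion protein, fell from 4233, 7492 and 8677 to 610.1, 106 and 73.3 (change -4.81, adjusted p = 0.00164). The stages were far apart for both genes, and I1 had the highest signal of its stage. The germ-cell RNA helicase Ddx4, known as Vasa and not usually expressed by somatic cells, gave 6515, 2124 and 1363 in MOSE-E and 1.54, 127 and 89.8 in MOSE-I (change -4.65, adjusted p = 0.00246), with E1 the highest array. It was read from 1 probe set. Grb10, an imprinted adaptor that restrains insulin and insulin-like growth factor receptors, had the smallest SE of the 15 largest falls and went from 3122, 3394 and 2782 to 115, 129 and 85.2 (change -4.31 ± 0.23, adjusted p = 1.87e-05). Klhl13 (a substrate adaptor of a cullin ubiquitin ligase), Gabra4 (a GABA receptor subunit), Bex4 and the chromatin organiser Satb1 went from signals of 489 to 2038 in MOSE-E to at most 109 in MOSE-I, with changes of -4.78, -4.03, -3.85 and -3.50. The receptor phosphatase Ptprf fell as well (change -3.55). Mean MOSE-I signals were under 100 for 28 of the 293 fallen genes, near background, so the sizes of those falls depend on the added 50. Among these genes Igfbp2, Cdh11, Ddx4, Grb10, Klhl13, Gabra4 and Bex4 held in every leave-one-out fit, and Satb1 and Ptprf had adjusted p of 0.0519 and 0.0668 without E3.

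**Figure D2:**
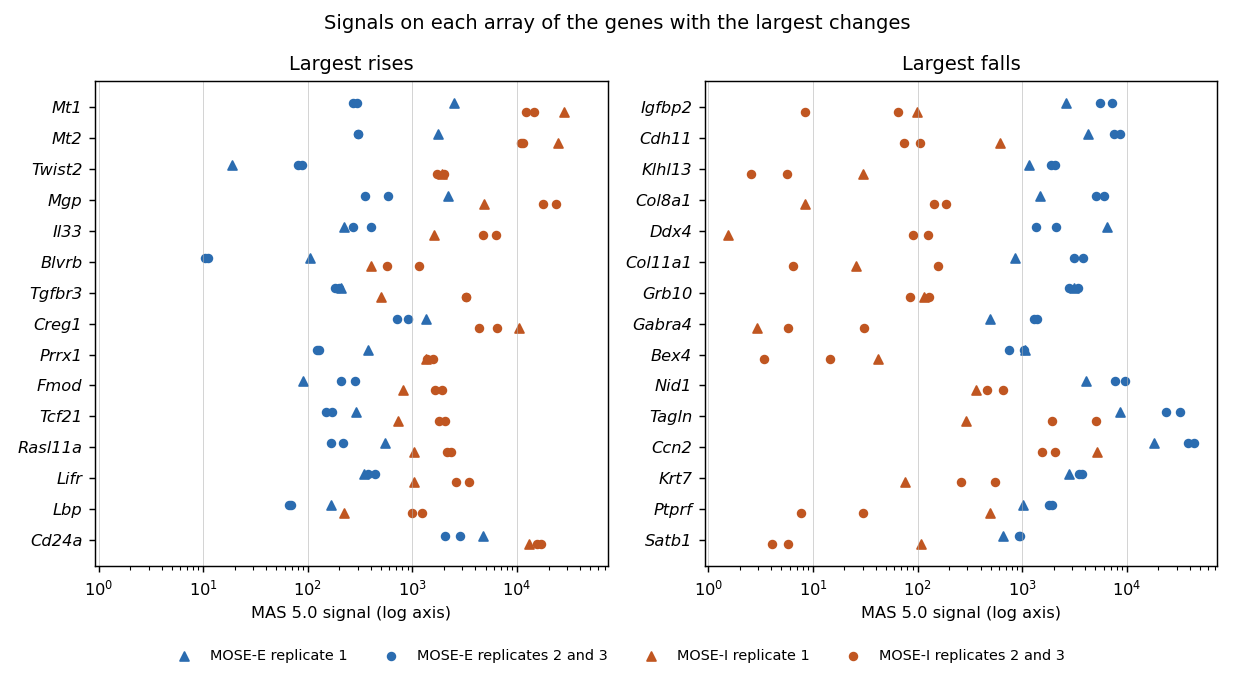
MAS 5.0 signals (log axis, no unit) on each MOSE-E (blue) and MOSE-I (orange) array of the 15 called genes with the largest rises (left) and the 15 with the largest falls (right) among those without overlapping stages. Triangles mark replicate 1 of each stage, which in many of these genes lay towards the other stage, as for Mgp at 2211 in MOSE-E and 4844 in MOSE-I.

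Many extracellular matrix genes fell. Of 22 listed collagens, 15 passed the signal filter, 13 of them in both stages, and 9 were called lower and none higher, where 3.99% of all genes were lower. Their median change was -1.52, against 0.04 for all tested genes. The vascular and corneal short-chain collagen Col8a1 fell from 1481, 6088 and 5127 to 8.30, 143 and 188 (change -4.72, adjusted p = 0.0023) and the fibrillar Col11a1 from 848, 3830.0 and 3136 to 25.8, 6.46 and 157 (change -4.54, adjusted p = 0.00379). For both, E1 was the lowest MOSE-E array but far above MOSE-I, and both held in every leave-one-out fit. The basement membrane collagens stayed bright while falling, Col4a1 from 13914, 30110.0 and 30768 to 4479.6, 6859 and 4339 (change -2.19, adjusted p = 0.00721) and Col4a2 from 4513, 12418 and 10927 to 1628, 2318 and 1775 (change -2.14, adjusted p = 0.00879). Col4a5, Col1a1, Col5a2, Col3a1 and Col5a1 fell, with changes of -1.67, -1.66, -1.57, -1.51 and -1.39. Not every collagen passed the test, and Col1a2 (-0.67, adjusted p = 0.265), Col6a1 (-0.04, adjusted p = 0.955) and Col6a2 (0.40, adjusted p = 0.584) were not called. Col4a1 held in every leave-one-out fit, and Col4a2 was lost without E2 or E3 (adjusted p = 0.0548 without E3). The number of collagens called lower was 3 without E2 or E3, and 4 without I3. The median stayed between -1.26 and -1.87 in these fits and without the other MOSE-E and MOSE-I arrays.

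Of 9 laminin and basement membrane genes past the filter (18 listed, 7 past it in both stages), 5 (against 3.99% of all genes) were called lower and none higher, with a median change of -1.47. Nidogen 1 (Nid1), which links laminin to type IV collagen, fell from 4101, 9706 and 7663 to 359.9, 465 and 654 (change -3.68 ± 0.30, adjusted p = 0.000388), and its paralog Nid2 from 703, 1649 and 1403 to 181, 103 and 124 (change -2.75, adjusted p = 0.00498). The stages were well apart for both nidogens, and both held in every leave-one-out fit. The laminin chains Lamc1 and Lamb1 fell, with changes of -1.96 and -1.70, and so did nephronectin (Npnt), an integrin ligand (-1.47). Perlecan (Hspg2, change -0.46, adjusted p = 0.253) and agrin (Agrn, -0.26, adjusted p = 0.728) were not called. The number called lower was 2 without E2, E3 or I3. The Lamc1, Lamb1 and Npnt calls gave their highest adjusted p, 0.0756, 0.187 and 0.0964, without E2.

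Of 16 matrix glycoproteins past the filter (36 listed, 15 past it in both stages), 6 (against 3.99% of all genes) were lower and none higher, with a median change of -1.05. They included tenascin C (Tnc), which modulates adhesion, from 2536, 8878 and 9306 to 598, 1506 and 1309.8 (change -2.43, adjusted p = 0.0153), thrombospondin 1 (Thbs1) with a change of -2.02, and the elastic fibre protein fibulin 5 (Fbln5) with a change of -1.92. E1 was the lowest MOSE-E array for these 3 genes, and their calls were lost without E2, E3 or I3, where 1, 1 and 2 glycoproteins were called. That of Thbs1 was also lost without I1 or I2. Among 15 genes of collagen processing and crosslinking 1, the procollagen protease Bmp1 (change -1.09, adjusted p = 0.0422), was lower, though 9 of the 15 lay without overlap below MOSE-E, where 18.1% of all genes did. The Bmp1 call was lost without E2, E3, I1, I2, I3 or L2 (adjusted p = 0.187 without E2). That count of 1 became 5 without E1, 2 without L1, and 0 without E2 or E3, I2, I3 or L2. Proteoglycans diverged, with Fmod higher (90.9, 209 and 281 to 808, 1637 and 1919, change 2.63) and glypican 4 (Gpc4, change -1.94) and syndecan 2 (Sdc2, -1.05) lower among 12 past the filter (10 in both stages). Fmod passed the filter through MOSE-I alone and so was bound to differ, and its call was lost without I3 (adjusted p = 0.0621). The Gpc4 and Sdc2 calls were lost without E2 or E3 (adjusted p of 0.0548 and 0.178 without E3). Of 16 matrix proteases and inhibitors (15 past the filter in both stages), 5 (against 3.99% of all genes) were lower and none higher, among them Adamts1 (-2.77) and Adamts5 (-2.45), which cleave proteoglycans, and the collagenolytic membrane protease Mmp14, from 13616, 21074 and 25786 to 6773, 3599 and 4078 (change -2.06, adjusted p = 0.00384). Mmp14 held in every leave-one-out fit, and Plaur, the urokinase receptor, and the sheddase Adam9 completed the list with changes of -1.35 and -1.27. Without E2 or E3, 1 of these genes was called, and without I3, 2 were, with an adjusted p of 0.0626 for Adamts5 without E3. The list did not fall together. Its median change was -0.25, 7 of the 16 members had positive changes, and the largest of these, 2.64, was not called. With I1 or L3 left out, 1 member was called higher.

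Some receptors for matrix and neighbouring cells fell. Of 8 integrin chains past the filter (6 in both stages), 3 were lower and 1 higher, where 3.99% and 2.4% of all genes were. The common beta chain Itgb1 fell from 7306, 10929 and 10022 to 4224, 3839 and 3534 (change -1.26, adjusted p = 0.0115), the vitronectin receptor chain Itgav had a change of -1.24, and the laminin receptor chain Itga7 one of -2.26, while Itgb8, an activator of latent TGF-beta, rose from 794, 399 and 437 to 1238, 1342 and 1491 (change 1.30, adjusted p = 0.0291). No integrin was called without E2, E3 or I3. Of 24 cadherin and cell junction genes past the filter (42 listed, 22 past it in both stages), 9 were lower and none higher, against the same shares, with a median change of -0.86. E-cadherin (Cdh1), the main epithelial adhesion protein, fell from 949, 782 and 486 to 52.6, 73.2 and 42.1 (change -2.86, adjusted p = 0.0076), and N-cadherin (Cdh2), typical of mesothelium and mesenchyme, from 4447, 4644 and 3332 to 1424, 815 and 1136 (change -1.85 ± 0.23, adjusted p = 0.0023). With Cdh11, 3 cadherins fell. The desmosomal genes desmoplakin (Dsp) and plakophilin 2 (Pkp2) fell, with changes of -2.38 and -1.99, and Dsp of I1 (443) lay next to that of E1 (445). Cdh2 and Cdh11 held in every leave-one-out fit, Cdh1 was lost without E2 (adjusted p = 0.0549), as were Dsp (0.173) and Pkp2 (0.126), and the number of junction genes called lower was 2, 3, 5 and 3 without E2, E3, I2 and I3.

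Markers of ovarian surface epithelium and mesothelium did not move as 1 group. Of 20 past the filter (29 listed, 17 past it in both stages), 7 were lower and 1, Tcf21, higher. Tcf21 passed it through MOSE-I alone and Cdh1 and Muc16 through MOSE-E alone, and so were bound to differ. Keratin 7 (Krt7) fell from 2793, 3487 and 3703 to 75.8, 545 and 259.8 (change -3.56, adjusted p = 0.00297), and mesothelin (Msln), a surface glycoprotein of mesothelial cells, from 4478, 6385 and 5325 to 1024, 1234 and 714 (change -2.41, adjusted p = 0.00384). Lrrn4 (change -2.49), the mucin Muc16 (-1.94) and the retinaldehyde dehydrogenase Aldh1a1 (-1.66) were lower too, besides both cadherins. Krt7 and Msln held in every leave-one-out fit, and the Lrrn4 call was lost without E2, E3 or I3 (adjusted p = 0.0642 without E2). Krt8 (0.29), Krt18 (0.27), Krt19 (-0.29), Wt1 (-0.15) and Upk3b (-0.22) were not called. Between 3 and 8 of these markers were called lower with each array left out, with 3 without E2 and 4 without E3 or I3. Of 12 fibroblast and stroma markers 6 passed the filter, 3 of them in both stages. Pdgfrb, Tcf21 and Pdgfra passed it through MOSE-I alone and so were bound to differ in their highest signal. Pdgfra of I1 (175) still lay among the MOSE-E signals (185, 178 and 128). Pdgfrb, the platelet-derived growth factor receptor of pericytes and fibroblasts, rose from 117, 209 and 166 to 404, 674 and 1011 (change 1.74, adjusted p = 0.0168), and Tcf21 from 288, 149 and 171 to 728, 2038 and 1786, whereas Col3a1 fell, and Pdgfra (1.79, adjusted p = 0.0984) and Dcn (1.03, adjusted p = 0.188) were not called. The sixth, the surface sialomucin Cd34, gave 1127, 818 and 948 in MOSE-E and 5100.3, 93.7 and 108 in MOSE-I (change -1.04, adjusted p = 0.534), so that I1 lay above and I2 and I3 lay below all MOSE-E arrays. Without I3 neither Pdgfrb nor Tcf21 was called (highest adjusted p 0.0996 and 0.0652), nor were they without E2 or E3, and without I1, 4 of the 6 were called higher. Of the markers under the filter, Lum and Fap stayed at or under 96.8 on the 6 arrays, and periostin (Postn), a matrix protein, gave 113, 332 and 410.0 in MOSE-E and 59.3, 4.96 and 25.6 in MOSE-I. In a culture, a change in the share of 1 kind of cell and a change in RNA per cell cannot be told apart.

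Transcription factors of epithelial to mesenchymal transition gave 3 rises among the 8 past the filter and no fall, where 2.4% of all genes were called higher. Of the 8, 5 passed the filter in both stages, and Twist2 and Prrx1 passed it through MOSE-I alone and so were bound to differ. Besides Twist2, Prrx1 went from 377, 122 and 128 to 1344, 1587 and 1370.4 (change 2.65, adjusted p = 0.00227), and Snai2 (Slug), a zinc-finger repressor of E-cadherin, from 1907, 1588 and 757 to 5323, 6138 and 5805 (change 2.08, adjusted p = 0.00699). The stages did not overlap for any of the 3, and all 3 calls held in every leave-one-out fit. The rest of the list had changes of -1.10 (Zeb2, adjusted p = 0.058) to -0.20 (Zeb1, adjusted p = 0.71), with Twist1 at -0.25 (adjusted p = 0.594), so the list's median was -0.22 although its called members were higher.

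Several targets of the co-activator YAP fell. YAP and its partner TAZ are co-activators that bind TEAD factors and are held out of the nucleus by the Hippo kinases LATS1 and LATS2, and they respond to adhesion, cell shape and matrix stiffness. Of 32 Hippo pathway and target genes past the filter (39 listed, 28 past it in both stages), 13 (against 3.99% of all genes) were lower and none higher, with a median change of -0.61. The secreted matricellular target Ccn2 (connective tissue growth factor) fell from 18099.7, 38761 and 44046 to 5144, 2077 and 1544 (change -3.59 ± 0.47, adjusted p = 0.00297). Its relative Ccn1 (Cyr61) fell from 8002, 26327 and 34455 to 2494, 4362 and 3101 (change -2.57, adjusted p = 0.0103), and the muscle and stress-response target Ankrd1 from 1281, 3560.2 and 4298 to 863, 272 and 296 (change -2.56, adjusted p = 0.0153). E1 was the lowest MOSE-E array for all 3 genes, below the others by a wide margin but above every MOSE-I array. The kinase gene Lats2, itself a target, fell from 3114, 4373 and 3727 to 739, 1268 and 865 (change -1.93, adjusted p = 0.00211), and Rbms3, Crim1, Ajuba, Vgll3, Axl, Amotl2, Wwc2, Gadd45b and Tead1 fell with changes of -2.11, -1.86, -1.75, -1.73, -1.41, -1.17, -1.12, -1.12 and -1.01. The co-activator genes themselves were not called, Yap1 at 0.06 (adjusted p = 0.856) and Wwtr1, which encodes TAZ, at -0.57 (adjusted p = 0.119). Ccn2 and Lats2 held in every leave-one-out fit, but the number called lower was 2 without E2 or E3 and 4 without I3. Without E2 the adjusted p was 0.062 for Ccn1 and 0.0831 for Ankrd1.

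Promoters of the fallen list genes were searched for GGAATG on both strands, the core that TEAD factors recognise. Those of Ccn1 and Ankrd1 are printed, as the 2 classical targets that the promoter table held, with matches in capitals, in RefSeq sequence of GRCm38.p6 at chr3:145649936-145650235 (Ccn1, minus strand) and chr19:36119795-36120094 (Ankrd1, minus strand). Ccn2 and Tead1 had no entry.
Ccn1: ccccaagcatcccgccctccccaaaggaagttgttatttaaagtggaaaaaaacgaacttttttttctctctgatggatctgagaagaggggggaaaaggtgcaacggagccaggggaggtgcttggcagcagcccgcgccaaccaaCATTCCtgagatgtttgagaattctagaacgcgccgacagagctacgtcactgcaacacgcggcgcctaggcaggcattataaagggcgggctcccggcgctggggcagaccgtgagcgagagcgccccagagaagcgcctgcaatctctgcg
Ankrd1: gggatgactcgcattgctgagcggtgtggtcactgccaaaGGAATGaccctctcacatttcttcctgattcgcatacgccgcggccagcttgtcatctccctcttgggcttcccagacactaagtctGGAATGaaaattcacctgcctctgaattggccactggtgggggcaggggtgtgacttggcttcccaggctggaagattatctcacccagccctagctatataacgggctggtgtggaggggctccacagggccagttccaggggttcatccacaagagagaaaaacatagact
Of the 11 fallen list genes with a promoter, 9 held the motif, and by promoter 9 of 13 did (69.2%). Of all 32851 promoters 14.7% did, and by gene 13.6% of the tested genes with a promoter and 20.5% of the 219 fallen ones. The list was made of pathway members and known targets, so the share among them describes the list, and a match is no evidence of binding.

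Of 13 genes of the insulin-like growth factor axis past the filter, 5 fell and none rose, where 3.99% of all genes were called lower. Only 8 of the 13 passed the filter in both stages, and Igfbp2 and Grb10 passed it through MOSE-E alone and so were bound to differ. Besides Igfbp2 and Grb10 they were Igfbp7, a secreted binding protein (3469.6, 5689 and 6847 to 1359, 1852 and 1229, change -1.78, adjusted p = 0.00721), the secreted protease Htra1, which cleaves such binding proteins (-1.60) and the receptor Igf1r (-1.35, adjusted p = 0.0495). The ligand Igf2 gave 39.2, 136 and 124 in MOSE-E and 33.0, 3854 and 3959 in MOSE-I (change 2.94, adjusted p = 0.132), high on I2 and I3 and near background on the other 4 arrays. The axis counted 3 falls, in place of 5, without E2, E3, I1 or I3. Among 28 TGF-beta and BMP pathway genes (22 past the filter in both stages), Tgfbr3, which passed through MOSE-I alone, was higher, a share near the 2.4% of all genes, and 3 were lower, where 3.99% of all genes were. The 3 were activin A (Inhba), from 1065, 4872 and 4695 to 782, 422 and 490.0 (change -2.31, adjusted p = 0.0247), its antagonist follistatin (Fst), from 796, 1226 and 1216 to 281, 260.5 and 140.4 (change -2.04, adjusted p = 0.00227), and Fstl1 (-1.22). Fst and Igfbp7 held in every leave-one-out fit. Fst was the 1 member of the TGF-beta list called lower without E2, E3, I2 or I3, and Tgfbr3 was not called there. Without E2 the adjusted p was 0.123 for Inhba, 0.127 for Fstl1, 0.136 for Htra1 and 0.199 for Igf1r.

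Among 21 growth factor receptors and ligands (15 past the filter in both stages), Pdgfrb and the vascular growth factor Vegfb (271, 33.9 and 95.6 to 547, 457 and 562, change 1.85, adjusted p = 0.0227) rose, and the ligand and receptor pair Gas6 (-1.77) and Axl (-1.41) fell. None of these 4 was called without E2, E3, I2 or I3. The guidance cue Slit2 fell from 2269, 6197 and 6008 to 878, 383 and 613 (change -2.79, adjusted p = 0.00328) and held in every leave-one-out fit, as did the semaphorin Sema3d (-1.80). The receptor Epha2 (-1.80) and the ligand Efnb2 (-1.11) were lower and the semaphorin receptor Plxnd1 (1.43) higher, with 21 guidance genes past the filter, 16 of them in both stages. These 3 calls were lost without E2 or E3 (adjusted p without replicate 2 0.136 for Epha2 and 0.0984 for Efnb2) and without I2 or I3 (0.118 for Plxnd1 without replicate 3). The AP-1 subunit Jun (-1.31) and the phosphatase Dusp14 (-1.15) were lower among 22 genes of ERK feedback and immediate early response, the Notch ligand Jag1 (-1.77) among 6 Notch genes, and Hoxc8 (-1.73) among 10 Hox genes, and the Wnt inhibitor Apcdd1 (1.33) was higher among 17 Wnt genes. None of these 5 was called without E2, and without E1, 5 of the 22 ERK and immediate early genes were lower. Of 10 imprinted genes 2, Grb10 and the zinc-finger gene Peg3 (-1.17), were lower, and the Peg3 call was lost without E2, E3, I1 or I3.

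Cholesterol synthesis genes were higher together, by about 1 on the log2 scale. The pathway runs from acetyl-CoA through mevalonate and squalene to cholesterol under control of the sterol-regulated factor SREBP2. Of 21 genes past the filter (27 listed, 20 past it in both stages), 4 rose, 1 fell and 15 lay without overlap above MOSE-E, where 24.3% of all genes did, and the median change was 0.99. The called rises were mevalonate kinase (Mvk), from 755, 212 and 273 to 1366, 1176 and 1363 (change 1.72, adjusted p = 0.034), squalene epoxidase (Sqle), a rate-controlling step, from 4625, 3026 and 3021 to 7116, 8677 and 8891 (change 1.22, adjusted p = 0.00817), and the later enzymes Nsdhl (1.14) and Cyp51 (1.00). In each, E1 was the highest MOSE-E array. Hmgcs1 (1.11, adjusted p = 0.0896), Fdps (1.15, adjusted p = 0.0631), Fdft1 (1.27, adjusted p = 0.0571) and Lss (1.18, adjusted p = 0.0773) had changes of like size without passing the test. The 1 fall was that of Abca1, the membrane pump that exports cholesterol, from 2394, 2621 and 2050.0 to 418, 438 and 514 (change -2.24 ± 0.22, adjusted p = 0.00104), which held in every leave-one-out fit. The number of rises was 13 without E1, 0 without E2 or E3, 2 without I1, and 1 without I2 or I3, while the median stayed between 0.77 and 1.34. Without L1, L2 and L3 it was 6, 3 and 9.

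All 36 respiratory chain genes past the filter had positive changes, and 30 of them lay without overlap above MOSE-E, where 24.3% of all genes did. Their median change was 0.68, and 0.60 under quantile normalization. A change of 1 was passed by 3, which were called, the complex I subunit Ndufv1, from 3872, 3233 and 3340.2 to 9154, 8114 and 7649.9 (change 1.24 ± 0.17, adjusted p = 0.00324), and the cytochrome oxidase subunits Cox8a, from 3787, 3256 and 3282 to 8897, 7492 and 8857 (change 1.28, adjusted p = 0.00807), and Cox6c, from 11559.8, 9063 and 9393 to 26597, 20841 and 22014 (change 1.21, adjusted p = 0.0113). The stages were tight and separate for these 3 genes. Ndufv1 held in every leave-one-out fit, and without E2 or E3 it was the 1 respiratory chain gene called, whereas 5 were called without E1 or I1. Ndufv1 and Cox8a lie on chromosome 19 and Cox6c on chromosome 15, whose genes had positive medians on every MOSE-I array. Bright genes in general shifted upward on these arrays. With the genes in 5 equal bins by mean signal, the median change was -0.05 in the dimmest bin and 0.16 in the brightest, and after quantile normalization it lay between 0.03 and 0.06 in each. The 29 ribosomal protein genes, among the brightest, had a median of 0.47, with 26 above MOSE-E without overlap, none called by limma (19 at an unadjusted p under 0.05), and a median of 0.08 after quantile normalization.

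In other metabolic groups few genes were called. Of 28 fatty acid genes, the desaturase Scd1 rose (1.23) and lipoprotein lipase (Lpl) fell (-1.57). Of 17 glycolysis and lactate genes, embigin (Emb), a partner of monocarboxylate transporters, rose from 188, 185 and 156 to 658, 573 and 529.6 (change 1.49, adjusted p = 0.00783) and the glucose transporter Slc2a3 fell (-1.01). Of the 17, 15 passed the filter in both stages, Emb through MOSE-I alone and Slc2a3 through MOSE-E alone, so both genes were bound to differ. Scd1, Lpl and Slc2a3 were not called when any MOSE-E or MOSE-I array other than E1, or L2, was left out, and Emb was lost without E3 (adjusted p = 0.0519). Of 32 lysosomal genes, Creg1 (1349, 707 and 917 to 10501, 4298 and 6410.1, change 2.73) and alpha-galactosidase (Gla, 1.56) rose and cathepsin C (Ctsc, -1.69) fell, and the Gla and Ctsc calls were lost without E2 or E3. Of 33 genes of NRF2 response, glutathione and metal binding, 4 rose and none fell, the glutathione transferases Gsta4 (3286, 1177 and 1245 to 4039, 6503 and 6416, change 1.68) and Gstm1 (1.11) besides the metallothioneins. No member of this list was called without E2 or E3, 2 were without I2 or I3, and 7 without E1. Of 11 retinoid and steroid genes Aldh1a1 was lower, and the list's median was 0.47.

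Genes of the cell cycle did not pass the test. Of 39 DNA replication genes and 44 of mitosis, none was called by limma in either direction, and at an unadjusted p under 0.05 there were 7 replication and 1 mitotic genes. The median change was 0.33 for replication, with 25 genes above MOSE-E without overlap and 2 below. It was 0.04 for mitosis, with 10 above and 11 below, and became -0.06 there after quantile normalization. Of all genes 24.3% lay above and 18.1% below without overlap. The ribonucleotide reductase subunit Rrm2 gave 19013, 17344 and 19142 in MOSE-E and 28736, 21336 and 20619 in MOSE-I (change 0.33, adjusted p = 0.733), and Cks1b, a cyclin-dependent kinase subunit, gave 20301, 17185 and 17659.6 and 23954, 16299.7 and 18354 (change 0.07). Of 23 G1 cyclins, kinases and inhibitors none was called, with 4 at an unadjusted p under 0.05. Among 22 p53 and DNA damage targets, Gadd45g (1041, 3979 and 5487 to 486, 1092 and 546, change -2.02) and Gadd45b (-1.12) were lower and none higher, with a median of -0.50. The p53 target Cdkn1a, a cell cycle inhibitor, had a change of -1.31 (adjusted p = 0.0664) and Perp one of -2.60 (adjusted p = 0.0618). None of the 22 was called without E2, E3 or I3, and 5 were without I1 and 4 without L3. In the Bcl2 family and apoptosis list, Bnip3, a mitophagy receptor (186, 189.6 and 246 to 708, 1042 and 972, change 1.89), and Bid, a pro-apoptotic BH3 protein (756, 776 and 820.1 to 1872, 1541 and 2047, change 1.16, adjusted p = 0.00704), rose among 20, and Bid held in every leave-one-out fit, while Bnip3 was not called without E2, E3, I2 or I3. Of the 20, 16 passed the filter in both stages, and Bnip3 passed it through MOSE-I alone and so was bound to differ.

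Immune genes were mixed and few. Of 12 chemokines and cytokines, Il33 and the neutrophil chemokine Cxcl1 (935, 747 and 795 to 4193, 1549.5 and 2497, change 1.57) rose and the macrophage growth factor Csf1 (4922, 12314 and 13657 to 2128, 3322 and 2537, change -1.82) fell. Of the 12, 10 passed the filter in both stages, and Il33 passed it through MOSE-I alone and so was bound to differ. Of 11 interferon response genes, Ifitm3, a restriction factor of enveloped viruses, rose from 5126, 4536 and 6849.7 to 12474, 19081 and 22218 (change 1.68, adjusted p = 0.00817), and of 9 MHC class I genes the immunoproteasome subunit Psmb10 did (1.16). The Ifitm3 call was lost without E2 (adjusted p = 0.0517), and the Csf1, Cxcl1 and Psmb10 calls were lost without E2, E3 or I3. I1 stood apart in these lists, and without it 3 interferon and 4 MHC genes were called higher. Among 8 listed complement and acute phase genes past the filter none was called by limma (2 at an unadjusted p under 0.05). Without I1, 2 of them were called higher, and without L1 or L2, 1 was. Lbp, among the 15 largest rises, was not on this list. C1s1 gave 1914, 4115 and 5360.3 in MOSE-E and 119, 5096 and 3312 in MOSE-I (change -1.31, adjusted p = 0.403). Few members were called in the remaining lists. They were Hyou1, an endoplasmic reticulum chaperone (-1.43), among 35 unfolded protein and stress genes, S100a16 (-1.28) among 14 S100 proteins and annexins, and Cd24a (higher), Itgb1 and Aldh1a1 (lower) among 15 stem and progenitor surface markers. Of these calls that of Cd24a held without each array, and the others were lost without E2 or E3. None of 16 DNA methylation and Polycomb genes was called, with 2 at an unadjusted p under 0.05. The S100 and annexin median was 0.09 and became -0.19 after quantile normalization. Of 44 contractile and cytoskeletal genes past the filter (39 in both stages), 12 (against 3.99% of all genes) were lower and none higher (median -0.86), among them the smooth muscle gene Tagln from 8582, 23922 and 32355 to 289.6, 5033 and 1917 (change -3.65, adjusted p = 0.0247), with 1 called without E2 or E3, 3 without I3 and 19 without E1.

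**Figure D3:**
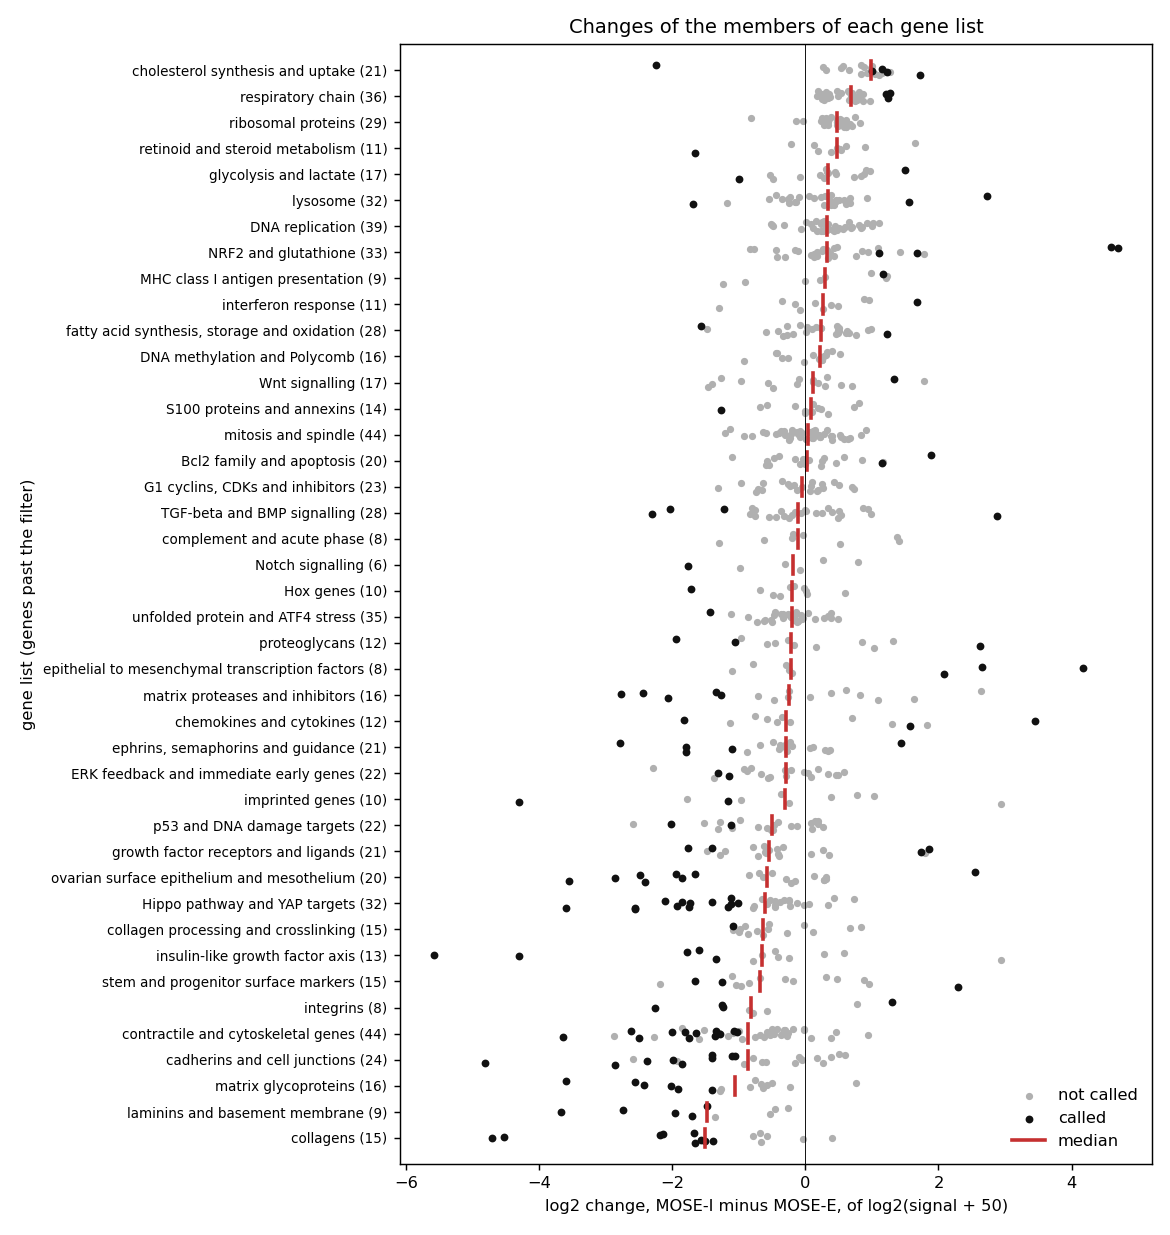
Log2 change (MOSE-I minus MOSE-E) of each gene past the signal filter in 42 gene lists, ordered by the list's median (red bar). Black points are called genes and grey points genes not called, and the number after each name is the number of genes past the filter. Collagens (median -1.52) and basement membrane genes (-1.47) stand at the bottom, and cholesterol synthesis (0.99) and the respiratory chain (0.68) at the top.

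Changes were unevenly spread over the chromosomes. On chromosome 15, 34 of 299 tested genes (11.4%) were called higher and 5 lower, and on chromosome 19, 22 of 285 (7.72%) were higher and 5 lower, where 2.4% of all genes were higher. On chromosome 3, 31 of 373 (8.31%) were lower and 3 higher, where 3.99% of all genes were lower. The median change of genes was 0.46 on chromosome 15, 0.33 on 19, 0.28 on 6 and -0.25 on 3, and lay between -0.17 and 0.16 on the other chromosomes. The called genes there served various functions, such as the receptor Lifr (2.32), the plasma selenoprotein Selenop (2.08), the pyrophosphate exporter Ank (1.64) and Sqle (1.22) on chromosome 15, and Il33, Vegfb, Cox8a, Ndufv1, Scd1 and the translation inhibitor Pdcd4 (1.53) on chromosome 19. Of these, Il33, Ndufv1, Selenop and Ank held in every leave-one-out fit. With the genes of a chromosome in 3 equal bins by position, the first bin of chromosome 3 had a median of -0.53, with 13 of 125 positive, and the next bins -0.10 and -0.15. On chromosome 15 the bins had medians of 0.60, 0.48 and 0.36. Bins also differed within chromosomes whose own median was nearer 0, as on chromosome 11 (0.22, -0.07 and 0.34) and chromosome 16 (0.24, -0.01 and -0.17).

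Against the mean of the MOSE-E arrays, each MOSE-E array had a median within 0.05 of 0 on every chromosome. That mean includes the MOSE-E arrays themselves, which draws their medians, but not those of MOSE-I, towards 0. I1, I2 and I3 had medians of 0.31, 0.49 and 0.51 on chromosome 15, and 0.44, 0.27 and 0.28 on chromosome 19, so all 3 were shifted. On chromosome 6 the values were 0.09, 0.37 and 0.40, on chromosome 3 -0.02, -0.34 and -0.35, and on chromosome 14 -0.02, -0.24 and -0.25. Chromosome 12 gave -0.01, -0.19 and -0.22, and chromosome 4 gave 0.08, -0.16 and -0.18. On these chromosomes the passages 71 and 73 were shifted alike and passage 63 lay nearer MOSE-E cells. The medians of chromosomes 15, 19, 6 and 3 kept their sign under quantile normalization (0.43, 0.32, 0.28 and -0.25), with 1 or 200 added to the signals, and without each MOSE-E and MOSE-I array, where that of chromosome 3 lay between -0.20 and -0.35. Chromosome copy number was not measured in these arrays, and its part in these shifts was not tested. Aneuploidy is one of the traits by which the study's methods set the passage ranges of the stages.

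**Figure D4:**
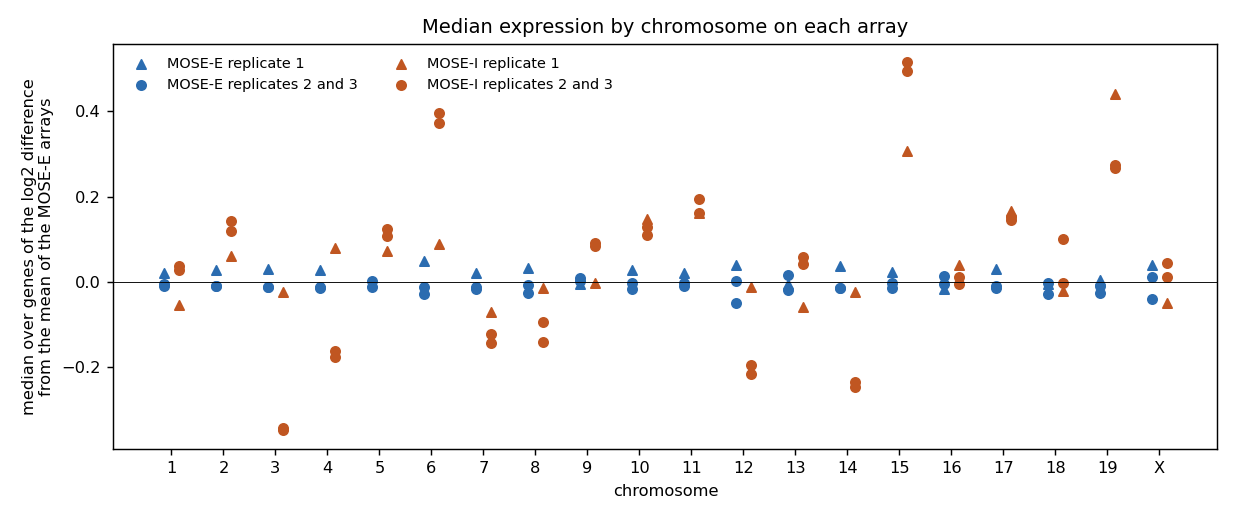
Median over the tested genes of each chromosome of the log2 difference between an array and the mean of the 3 MOSE-E arrays, for MOSE-E (blue) and MOSE-I (orange) arrays, with replicate 1 as triangles. MOSE-I medians on chromosomes 15 and 19 lie at 0.27 or above on all 3 arrays, and those on chromosomes 3, 6 and 14 are far from 0 on replicates 2 and 3 but not on replicate 1.

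The X chromosome gave a median near 0 (0.01), but Xist, the long RNA that coats and silences the inactive X in female cells, fell. Its signals were 6821, 19489 and 15384 in MOSE-E and 2625, 2285 and 2924 in MOSE-I (log2 change -2.27 ± 0.40, adjusted p = 0.00913). E1 had the lowest MOSE-E value, above all MOSE-I arrays, and all 3 tested Xist probe sets were called lower. The call was lost without E2 or E3 (adjusted p = 0.0568 without replicate 3). The Y-linked genes Eif2s3y, Kdm5d and Uty stayed under the filter, at most 99.6 on the 6 arrays. Of 233 tested X-linked genes, 5 were higher and 17 lower (7.3%), where 2.4% and 3.99% of all genes were. The lower ones included Klhl13, Bex4, Gpc4, Col4a5 and Fhl1, of which Klhl13, Bex4 and Fhl1 held in every leave-one-out fit.

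The MOSE-L arrays show, side by side, which of the leading changes were still seen in later passages. This comparison shares the MOSE-I arrays with the one above. The leading genes were chosen for high or low MOSE-I signals, so a move back in MOSE-L was favoured in advance. The share of all tested genes that were lower in MOSE-L was not counted, so the number among the leading genes is not read as a result. Twist2 gave 161, 82.7 and 87.6 in MOSE-L (change from MOSE-I -3.62, adjusted p = 0.000127), Fmod 84.9, 55.4 and 8.34 (change -3.92, adjusted p = 0.000605), and Cd24a 1364, 672 and 909 (change -3.94, adjusted p = 7.4e-05), so these 3 rises were not kept. Of the other genes among the 15 largest rises, Tcf21, Mt2, Mgp, Il33, Prrx1 and Rasl11a were also lower in MOSE-L than in MOSE-I. Their changes were -3.55, -2.99, -2.98, -2.16, -1.87 and -1.36 (highest limma adjusted p 0.0479). Mt1 (-1.86), Tgfbr3 (-0.57), Lbp (0.06), Blvrb (0.30), Creg1 (0.62) and Lifr (1.14) did not pass the test against MOSE-I cells. Igfbp7 gave 13733, 22645 and 19433 (change 3.60, adjusted p = 7.4e-05) and Msln 2141, 4295 and 5671 (change 1.90, adjusted p = 0.00582), both up again from their MOSE-I values. Snai2 at 6422, 5465 and 10207 (change 0.30, adjusted p = 0.512) and Ccn2 at 3662, 4429 and 7923 (change 0.97, adjusted p = 0.144) did not pass the test against MOSE-I cells. Grb10 (75.6, 67.0 and 46.4, change -0.50), Klhl13 (5.58, 45.1 and 1.91) and Col8a1 (115, 59.9 and 67.1) had MOSE-L signals at or under 115 and were not called against MOSE-I either. Xist gave 1106, 2149 and 2686 in MOSE-L cells (change -0.47, adjusted p = 0.392).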

How the data were processed

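Labelled RNA of each sample was read on 1 Affymetrix whole-genome mouse array. The deposited intensities are linear MicroArray Suite 5.0 signals, which the authors brought to a trimmed mean of 500 on every array. From these, log2(signal + 50) was fitted in limma 3.58.1 (R 4.3.3) with 1 mean per stage over all 9 arrays and a variance that follows the mean signal, after 64 control probe sets and those not over 500 on any MOSE-E or MOSE-I array were left out. Adjusted p-values (Benjamini-Hochberg) covered the 12604 probe sets left. Of 45101 probe sets 34958 named 1 gene, whereas 932 named more and 9211 named no gene. A GRCm38.p6 gene table held the gene of 34754. Genes named were the 15 largest rises and falls called without overlap, up to 5 called members per gene list (47 lists), and members needed to describe a pathway. The comparison, members and lists were chosen with earlier results of these data known. Alternatives changed the added value, scaling, filter, variance, samples, threshold or test. The fit was tested on simulated data. The methods' thresholds were on raw fold changes and t-tests. Precision is limited by 3 arrays per stage. Detection calls were not used here.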

Additional observations from a re-analysis of the deposited data

How the results depend on the processing

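With all 9 arrays 265 probe sets were called higher and 519 lower. Array weights gave 751 and 1056, an adjusted p of at most 0.01 gave 63 and 140, and the methods' t-test with Benjamini-Hochberg adjustment and a 2-fold ratio gave 4 and 10 (347 and 608 unadjusted). Without a minimum change 678 were higher and 744 lower. Leaving out 1 array gave 40 to 486 higher and 92 to 750 lower. The remaining alternatives gave 180 to 334 higher and 371 to 699 lower. No called gene named by the rule changed sign under these alternatives. Of the 118 called genes named by the rule, 113 stayed called with an added value of 1, 108 with 200, 110 after quantile normalization and 36 without MOSE-E replicate 2 or 3. Whether stage replicate numbers marked cultures handled together is not stated, and 3 arrays per stage are too few to tell. The deviations of same-numbered arrays from their group means correlated at 0.066, 0.045 and -0.020, and those of other pairs at -0.128 to 0.157. The replicate block as a term in the fit gave 277 probe sets higher and 582 lower. The part of RNA integrity, of the arrays that stood apart and of chromosome number in these changes was not tested, and signals under about 100 lie near background, which limits the size of the largest falls.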
